A study of Mus musculus with 8 samples.

Results

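Cartilage is laid down by chondrocytes, cells that condense from mesenchyme and fill the space around them with a matrix of collagen fibrils and sulphated proteoglycan. The transcription factor Sox9 is required for these condensations and, with Sox5 and Sox6, binds enhancers of the matrix genes. Type II collagen (Col2a1) forms the fibril together with the type XI chains, type IX chains decorate its surface, and aggrecan (Acan) is bound to hyaluronan through the link protein encoded by Hapln1. In the mouse the first condensations appear around mid-gestation, and Sox9 is also made outside cartilage, in the neural tube, neural crest, gut and gonad.

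The 10 genes described here are Sox9, Col2a1, Col9a1, Col9a2, Col9a3, Col11a1, Col11a2, Acan, Matn4 and Hapln1, taken by gene symbol from the deposited tables. All 10 were present among the 18904 genes of the Meis1 table and among the 17348 genes of the Prep1 table. The data are 8 RNA sequencing libraries, each from whole mouse embryos of strain C57BL/6 taken at embryonic day 11.5. Of these, 3 are labelled Meis1 knockout (KO) and 3 are from wild-type (WT) littermates, while 1 is labelled Prep1 hypomorph, carrying a Prep1 allele of reduced function, and 1 is from its own WT littermates. Meis1 and Prep1 (listed as Pknox1) are homeodomain factors of the TALE family, and the series concerns where they bind and how transcription differs without them. The labels do not state how the alleles were made or how many embryos went into a library, so p-values measure the spread between these libraries. Because whole embryos were used, more cells of a type and more RNA per cell cannot be told apart in any value below.

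Levels are given in CPM, counts scaled to the effective size of their library so that libraries of unequal depth can be set side by side. The deposited Meis1 table gives group means, from which the whole counts of each library were worked back. The libraries of each group are called a, b and c by size, and they cannot be tied to the sample codes. The 6 libraries of the Meis1 comparison held 4197789 to 6156055 counts, the Prep1 hypomorph library 5893401 and its WT library 4000984. Meis1 stood at 87.6, 69.0 and 71.9 CPM in KO a, b and c, against 93.8, 89.2 and 113.9 CPM in WT a, b and c, so it was present in each KO library. Its log2 difference was -0.38 (SE 0.16) and that of its relative Meis2 was 0.39 (SE 0.14), neither past FDR 0.05 by edgeR (adjusted p = 0.9999 for both), and the deleted part of Meis1 is not stated. Pknox1 had 14 counts (2.36 CPM) in the hypomorph library against 129 counts (32.5 CPM) in its WT library. Low-oxygen genes set KO a apart, with a summed level of 8783 CPM over 19 genes there and 2073 to 2730 CPM in the other 5 libraries. Along the first principal component of all genes (39.9% of the variance) KO b (28.1) and WT b (32.6) lay on one side and the other 4 libraries between -34.7 and 0.19, so that axis did not follow the genotype.

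The Meis1 comparison asks whether cartilage transcripts differ in KO embryos. Sox9 and the genes for the main collagen chains were at like levels in both groups. In 9 of the 10 genes, all but Acan, counts were high enough for testing. Of these 9, Col9a2, Col9a3, Matn4 and Hapln1 varied most, and they did so between libraries of the same genotype, with overlapping groups. With edgeR's quasi-likelihood test and Benjamini-Hochberg adjustment over all 14434 genes tested, 0 of 9 passed a false discovery rate (FDR) of 0.05, as did 0% of all genes, and the lowest adjusted p among the 9 was 0.9999. At an unadjusted p under 0.05 there were 0 of 9, against 1.57% of all genes. DESeq2 called 0 of them, against 0.00693% of all genes (1 gene), and limma-voom called 0. In 0 of 9 were the KO and WT ranges apart, against 5.67% of all genes (3.01% with KO above WT and 2.67% with KO below WT). The fitted log2 differences (KO minus WT) ran from -0.61 to 0.22, with 5 above 0, 4 below 0 and a median of 0.05, beside a median of -0.00063 and 49.9% above 0 over all genes tested.

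**Figure D1:**
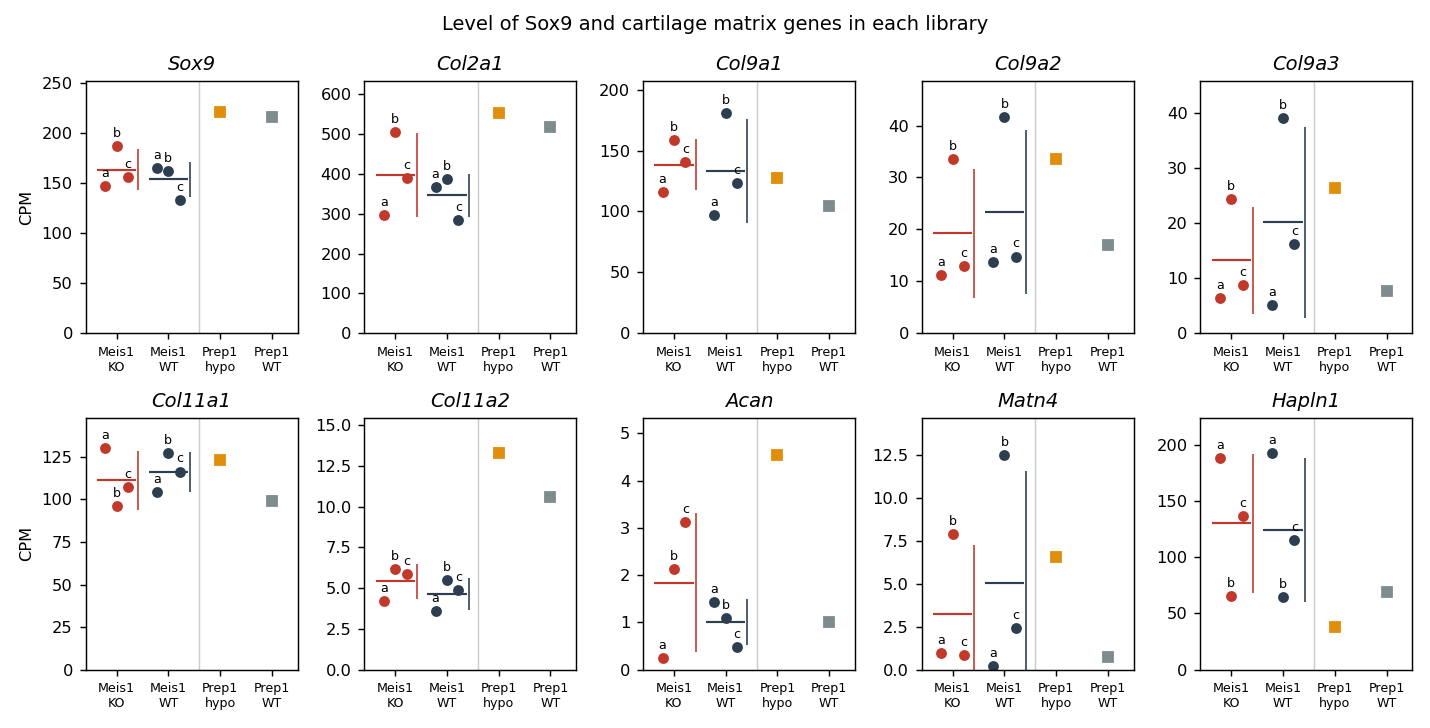
Level (CPM, linear axis from 0) of each gene in every library. Circles are the KO and WT libraries a to c of the Meis1 comparison with the group mean (horizontal line) and SD (vertical line, ended at 0 where it would go below), and squares are the single Prep1 hypomorph and WT libraries, normalised in a separate table. KO and WT circles overlap in all 10 genes. In Col2a1, Col9a1, Col9a2, Col9a3, Col11a2 and Matn4 the library called b is highest in both groups.

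Sox9 (chromosome 11, 112643538 to 112649074 in mm9), the regulator of the group, stood at 147.4, 187 and 155.7 CPM in KO a, b and c and at 165.2, 161.9 and 133.4 CPM in WT a, b and c. The means were 163 ± 20.9 CPM in KO and 154 ± 17.5 CPM in WT (SD, n = 3 each), a log2 difference of 0.09 (SE 0.15). The groups overlapped, and the highest library of each group was only 1.27-fold (KO) and 1.24-fold (WT) above its lowest. Sox9 was thus among the steadier genes, with a within-group SD of 0.17 on the log2 CPM scale that exceeded 28.2% of all genes tested.

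The fibril-forming chains came next in steadiness. Col2a1 (chromosome 15, 97806033 to 97835155) encodes the main collagen of cartilage, also made in notochord and parts of the neural tube. It stood at 296.7, 506.7 and 391 CPM in KO a, b and c and at 367.2, 386.7 and 284.4 CPM in WT a, b and c. Its log2 difference was 0.20 (SE 0.20), the value coming from KO b, without which it was -0.0099. Col11a1 (chromosome 3, 113733458 to 113923636) encodes the chain that sets fibril diameter with Col11a2, and is also used outside cartilage. It averaged 111 ± 17.5 CPM in KO and 116 ± 11.7 CPM in WT (SD, n = 3 each), a log2 difference of -0.06 (SE 0.15). Col11a2 (chromosome 17, 34176382 to 34203630) was a low transcript, at 5.42 ± 1.07 CPM in KO and 4.65 ± 0.96 CPM in WT (SD, n = 3 each), a log2 difference of 0.22 (SE 0.31). In these 3 genes KO and WT overlapped, and no library stood far from the others.

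The type IX chains ranked the libraries of each group in the same order, a lowest, then c, then b, but by unlike amounts. Col9a1 (chromosome 1, 24184449 to 24259577) stood at 116.3, 158.3 and 140.9 CPM in KO a, b and c and at 97.1, 180.5 and 123 CPM in WT a, b and c. Col9a2 (chromosome 4, 120711990 to 120727927) stood at 11.1, 33.5 and 13 CPM in KO a, b and c and at 13.7, 41.6 and 14.7 CPM in WT a, b and c. Col9a3 (chromosome 2, 180332495 to 180356894) stood at 6.42, 24.4 and 8.78 CPM in KO a, b and c and at 5.04, 39 and 16.2 CPM in WT a, b and c. In all 3 genes KO b and WT b were the highest libraries, by a smaller fold in Col9a1 than in Col9a2 and Col9a3. For Col9a1, WT b was 1.86-fold above the lowest WT library and KO b 1.36-fold above the lowest KO library. The log2 differences between groups were 0.05 (SE 0.22), -0.27 (SE 0.50) and -0.60 (SE 0.64) for Col9a1, Col9a2 and Col9a3. Leaving out WT b turned that of Col9a2 to 0.44 and that of Col9a3 to 0.28. At its 3′ side, Col9a3 overlaps Tcfl5 on the other strand, and the strand setting of the counting is not stated. Tcfl5 itself had a mean of 10.1 size-scaled counts.

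Type IX collagen is assembled from 1 chain of each gene. Per kilobase of the longest coding transcript (GENCODE M21), Col9a1 stood at 36.1 ± 5.5 CPM per kb in KO and 34.8 ± 11.1 CPM per kb in WT (SD, n = 3 each). Col9a2 stood at 6.57 ± 4.26 in KO and 7.99 ± 5.42 in WT, and Col9a3 at 4.33 ± 3.2 in KO and 6.59 ± 5.68 in WT, in the same unit and n. Transcripts of the 3 chains were therefore far from equal at this stage. The Col9a2 level was 12.5%, 27.8% and 12.1% of the Col9a1 level in KO a, b and c, and 18.4%, 30.2% and 15.7% in WT a, b and c. The Col9a3 level was 6.95%, 19.4% and 7.84% of it in KO a, b and c, and 6.53%, 27.2% and 16.6% in WT a, b and c. Both shares were highest in the b library of each genotype. In the Prep1 pair the Col9a2 share was 34.5% in the hypomorph and 21.1% in WT, and the Col9a3 share 26% in the hypomorph and 9.08% in WT.

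**Figure D2:**
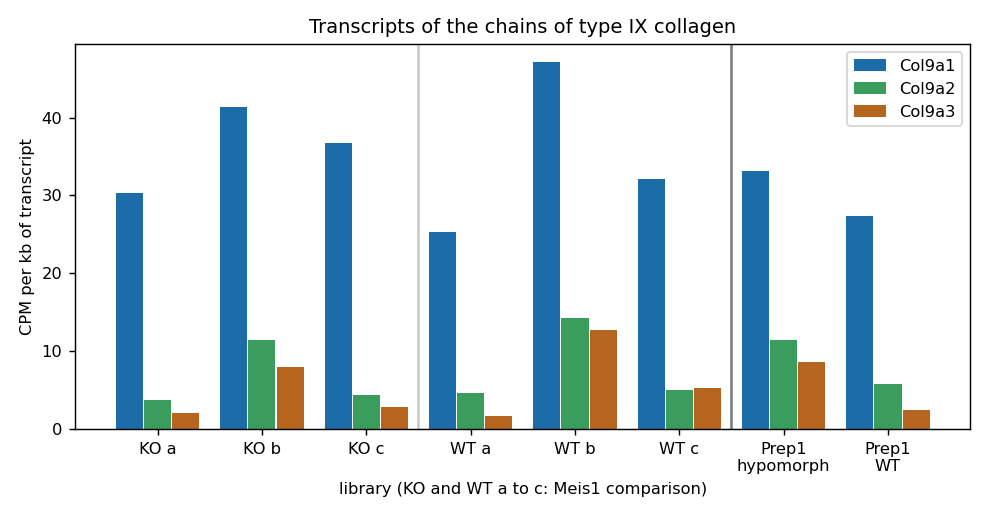
Level of Col9a1, Col9a2 and Col9a3 in CPM per kilobase of transcript (bars, linear axis from 0) in each of the 8 libraries. Col9a1 is the tallest bar throughout, and Col9a2 and Col9a3 are highest in KO b, WT b and the Prep1 hypomorph, where Col9a3 reaches 8, 12.8 and 8.62 CPM per kb.

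Among the non-collagen genes, Matn4 and Hapln1 went opposite ways between libraries. Matn4 (chromosome 2, 164215129 to 164230660) encodes matrilin-4, a filament protein of the extracellular matrix. Libraries a, b and c held 4, 37 and 4 Matn4 counts in KO and 1, 57 and 15 in WT, or 0.99, 7.91 and 0.84 CPM in KO and 0.24, 12.5 and 2.43 CPM in WT. The b library was the highest in each group. Matn4 overlaps the other-strand gene Rbpjl by its coordinates, and that entry had a mean of 1.32 size-scaled counts. Hapln1 (chromosome 13, 89680241 to 89751437), the link protein gene, also active in the embryonic heart, stood at 188.4, 65.2 and 136.7 CPM in KO a, b and c and at 192.1, 64.6 and 115.6 CPM in WT a, b and c. Here the b library was the lowest in each group, and the groups covered almost the same range. The letters rank libraries by size within a group and pair no KO library with a WT library. The log2 differences were -0.61 (SE 1.02) for Matn4, 1.15 without WT b, and 0.07 (SE 0.41) for Hapln1, -0.30 without KO a and -0.24 without WT b.

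Acan (chromosome 7, 86198369 to 86259985), the gene for the large proteoglycan of mature cartilage, was barely detected. Its counts in libraries a, b and c were 1, 10 and 15 for KO and 6, 5 and 3 for WT. The 2 KO libraries with the most Acan exceeded every WT library and KO a lay below every one. Tested without the filter on low counts, its log2 difference was 0.93 (SE 0.74, adjusted p = 0.9997 in edgeR's quasi-likelihood test). Unlike Col9a2, Col9a3 and Matn4, Acan was not highest in the b libraries of both groups, although counts this low allow a wide range. Per kilobase, Acan in these 6 libraries was 0.102% to 2.55% of Hapln1, whose protein binds aggrecan to hyaluronan in mature cartilage.

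The spread within groups was the main feature of these data. Between the highest and lowest WT library, Col9a3 differed 7.74-fold (95% exact counting interval 4.91 to 12.8), Col9a2 3.05-fold (2.25 to 4.17), Hapln1 2.97-fold (2.6 to 3.41) and Matn4 52.1-fold (8.98 to 2092, from 57 counts and 1 count). Between the highest and lowest KO library the folds were 3.8 (2.46 to 6.06) for Col9a3, 3.02 (2.16 to 4.31) for Col9a2, 2.89 (2.53 to 3.31) for Hapln1 and 9.46 (3.4 to 36.5) for Matn4. These intervals cover counting error only, for pairs picked as the extremes. The within-group SD of log2 CPM exceeded that of 98% of all genes tested for Col9a2, 99.5% for Col9a3, 99.9% for Matn4 and 97.2% for Hapln1. For Sox9, Col2a1, Col9a1, Col11a1 and Col11a2 the same percentiles were 28.2, 68.3, 74.2, 32.7 and 60.3.

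The authors' deposited table carries its own measure of spread, a ratio of the variance seen to the variance fitted at that mean, which was not used to work back the counts of these genes. For Col9a2, Col9a3, Matn4 and Hapln1 this ratio was 4.53, 4.06, 4.26 and 6.26 in KO and 8.27, 12.8, 9.32 and 10 in WT. All of these exceeded 4, as the ratios of 1.66% (KO) and 1.4% (WT) of all genes in that table did. They belong to the genes already described as varying most in the same libraries, and 4 lies just under their lowest ratio. That share is therefore a description only. The median over all genes was 0.344 in KO and 0.342 in WT. The other 6 genes had ratios of 0.197 to 2.23 in KO and 0.184 to 3.76 in WT. In the same table the authors' adjusted p was 1 for all 10 genes, and the lowest unadjusted p was 0.0498 for Col9a3.

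**Figure D3:**
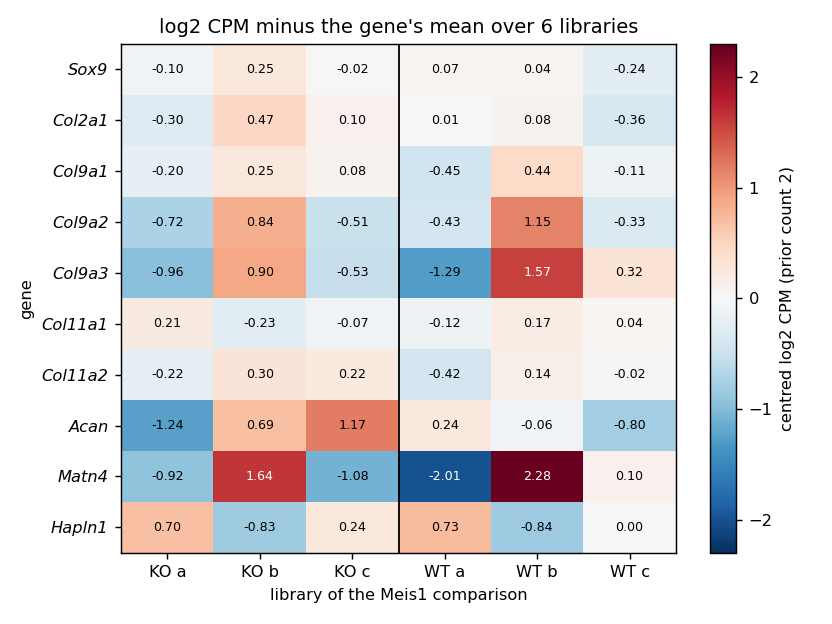
Heat map of log2 CPM (prior count 2) minus each gene's mean over the 6 libraries of the Meis1 comparison, with genes in rows and libraries in columns, KO left of WT. Columns KO b and WT b are red for Col9a2 (0.84 and 1.15), Col9a3 (0.90 and 1.57) and Matn4 (1.64 and 2.28) and blue for Hapln1 (-0.83 and -0.84), while Sox9 stays between -0.24 and 0.25.

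KO b and WT b were the 2 highest of the 6 libraries in 4 of the 9 tested genes (Col9a1, Col9a2, Col9a3 and Matn4), as in 13.2% of all genes tested, and the 2 lowest in 1 of 9 (Hapln1), as in 12.8% of all genes. This count was made after the values were seen. The other lists differed in this count. Both b libraries were highest in 5 of 12 other cartilage matrix genes, 5 of 18 chondrogenic factors and 4 of 20 chondrogenic signals. They were also highest in 4 of 20 genes of collagen biosynthesis and 7 of 20 genes of proteoglycan synthesis. They were highest in 5 of 11 skeletal muscle genes and 3 of 7 neural crest and glial genes. The count was 0 of 11 neural progenitor, 0 of 5 notochord, 0 of 18 low-oxygen, 0 of 9 TALE and 0 of 2 hypertrophic cartilage and bone genes. Both b libraries were lowest in 2 of 5 notochord and 2 of 18 low-oxygen genes. They were lowest in 1 of 12 other cartilage matrix genes, 1 of 20 chondrogenic signals, 1 of 20 genes of proteoglycan synthesis and 1 of 11 skeletal muscle genes. In the remaining lists they were lowest in 0 genes. Fmod, which encodes fibromodulin, a collagen-binding proteoglycan, stood at 18.8, 40.8 and 16.9 CPM in KO a, b and c and at 18, 53.5 and 31.3 CPM in WT a, b and c. Pax1, a factor of the sclerotome from which vertebrae form, stood at 15.8, 45.9 and 35.5 CPM in KO a, b and c and at 27.3, 41.2 and 25.4 CPM in WT a, b and c. Both genes were highest in KO b and WT b, and both were picked as examples after their values were seen. The finer stage and tissue make-up of each library are not stated, and their part in this spread was not tested.

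By a fixed measure, Pearson's r with the mean of the 10 genes' standardised log2 CPM over the 6 libraries, the most alike of 11048 genes with at least 10 CPM were Ssbp4 (0.993), Ctdsp2 (0.990), Afap1l2 (0.989), Neurl4 (0.986), Nfkbil1 (0.984) and Tmem115 (0.984). This is a description over 6 libraries that share their normalisation, and r carries no test. Ssbp4 stood at 41, 71.4 and 50.8 CPM in KO a, b and c and at 39.6, 74.3 and 39.4 CPM in WT a, b and c. The mean by which Ssbp4 was picked was itself highest in KO b and WT b, so its high b libraries follow from the choice.

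Promoter sequences of RefSeq (build GRCm38.p6, 250 bases before to 50 after the annotated start) were matched for 7 of the 10 genes, in 9 windows. The others are Sox9, Col2a1 and Col9a3. Windows are shown for Col9a2 and Matn4, which were highest in the b libraries, and for Hapln1, which was lowest there. Each is written 5′ to 3′ on the strand of the gene, and capitals mark the core TGACAG bound by Meis and Prep proteins. Col9a2 is at chr4:121039316-121039615 on the plus strand, Matn4 (the upstream of 2 annotated starts) at chr2:164405111-164405410 on the minus strand and Hapln1 at chr13:89540386-89540685 on the plus strand.
Col9a2: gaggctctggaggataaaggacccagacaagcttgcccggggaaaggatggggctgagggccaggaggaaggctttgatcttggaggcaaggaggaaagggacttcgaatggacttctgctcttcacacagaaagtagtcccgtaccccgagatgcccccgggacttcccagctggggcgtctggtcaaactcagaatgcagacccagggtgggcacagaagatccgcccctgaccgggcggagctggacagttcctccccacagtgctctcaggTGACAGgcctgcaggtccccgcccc
Matn4: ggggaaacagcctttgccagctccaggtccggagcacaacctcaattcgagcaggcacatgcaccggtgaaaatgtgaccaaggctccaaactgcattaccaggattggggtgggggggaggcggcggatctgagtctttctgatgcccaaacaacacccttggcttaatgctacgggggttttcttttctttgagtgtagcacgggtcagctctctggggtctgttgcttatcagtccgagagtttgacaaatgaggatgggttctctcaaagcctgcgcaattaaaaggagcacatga
Hapln1: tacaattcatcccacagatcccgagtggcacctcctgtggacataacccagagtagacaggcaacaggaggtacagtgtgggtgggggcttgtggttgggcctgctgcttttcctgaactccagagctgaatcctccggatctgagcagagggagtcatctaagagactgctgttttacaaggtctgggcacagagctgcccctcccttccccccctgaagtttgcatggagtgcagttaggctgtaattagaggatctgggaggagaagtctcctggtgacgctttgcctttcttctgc

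On both strands, TGACAG was found in 1 of the 9 windows (Col9a2, from base 26 after the start), and 19.2% of 32851 promoter windows of the same length hold it. The SOX cores ACAAAG or ACAATG were found in 0 of the 9 windows, and 28.6% of all windows hold 1 or both. The matches are letters in a window and carry no information on binding.

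Other genes of cartilage formation, from lists chosen with earlier results of these data known, likewise gave no call in the Meis1 comparison. Of each list, 0 genes passed FDR 0.05 in edgeR's quasi-likelihood test, where every adjusted p named here was 0.9999. Over all genes tested, 49.9% lay above 0, and KO lay above WT without overlap in 3.01% and below it in 2.67%. Among factors acting with Sox9 or in sclerotome, 11 of 18 tested lay above 0, with a median log2 difference of 0.07. Sox6, a partner of Sox9, differed by 0.28 and Meox1, a somite factor, by 0.29. Among signals and receptors of chondrogenesis, 14 of 20 lay above 0 with a median of 0.10. Npr2, the receptor for C-type natriuretic peptide, which promotes cartilage growth, differed by 0.47 without overlap of the groups, and Ptch1, the hedgehog receptor gene, by 0.49. In the list of other cartilage matrix genes, 5 of 12 lay above 0 with a median of -0.10, with Vit (vitrin) at 0.92 and Fmod at -0.42. For proteoglycan synthesis 8 of 20 lay above 0 with a median of -0.03, with Fam20b, a xylose kinase gene, at -0.28 and Slc26a2, the sulphate transporter gene, at -0.23. KO lay above WT without overlap in 2 of the 18 factors (Sox6 among them), 1 of 20 signals (Npr2) and 1 of 12 other matrix genes (Vit). KO lay below WT without overlap in 1 of 20 genes of proteoglycan synthesis (Fam20b).

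Among genes of collagen biosynthesis 15 of 20 lay above 0, with a median log2 difference of 0.06. P4ha2, a subunit of the enzyme that hydroxylates proline in collagen, stood at 127.6, 50.4 and 36.8 CPM in KO a, b and c and at 27.6, 38.8 and 36 CPM in WT a, b and c. Plod2, which hydroxylates lysine, stood at 315.5, 109 and 126.4 CPM in KO a, b and c and at 101.4, 107.6 and 106.5 CPM in WT a, b and c. Both genes were far higher in KO a than in any other library, and both also belong to the low-oxygen list. Of that list 18 of 18 tested genes lay above 0 (median 1.03), with Egln3, a proline hydroxylase gene of oxygen sensing, at 1.42 and Vegfa, a blood vessel growth factor gene, at 1.43. These 2 values also came mainly from KO a. Egln3 stood at 46.2 CPM in KO a and at 7.62 to 14.1 CPM in the other libraries, and Vegfa at 367 CPM and at 55.2 to 93.4 CPM. Among the cartilage genes, KO a was the lowest of the 6 libraries for Col9a2 and Acan, next to lowest for Sox9, Col2a1, Col9a1, Col9a3 and Col11a2, and the highest for Col11a1. The part of the low-oxygen genes in those values was not tested.

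Markers of cells that share some of these genes are given beside them. The summed level of 11 neural progenitor genes was 961 CPM in KO a and 1387 to 1464 CPM in KO b and c, against 1179 to 1402 CPM in WT. The low sum in KO a was mostly that of Nes, the nestin gene, at 298 CPM there and 590 to 864 CPM in the other 5 libraries, while Notch1 was highest in KO a, at 199 CPM. For 7 notochord genes it was 77.1 to 152.6 CPM in KO and 78.7 to 126.2 CPM in WT, lowest in KO b and WT b, mostly from Krt18 and Krt8, which other epithelia also express. For 7 neural crest and glial genes it was 193.5 to 242.5 CPM in KO and 164 to 223.3 CPM in WT. For 12 skeletal muscle genes it was 600.4 to 684.9 CPM in KO and 590 to 661.9 CPM in WT. Of 11 genes of hypertrophic cartilage and bone 6 were in the table, with a summed level of 15.1 to 21.4 CPM in KO and 18 to 19.8 CPM in WT. The osteoblast factor gene Sp7 had 2 to 14 counts a library. In each list 0 genes passed FDR 0.05, and the log2 differences of genes with the smallest p were those of Sox2 and Notch1 (0.34 and 0.46), Shh and Foxa1 (0.41 and 0.62), Foxd3 (0.55), Acta1 and Myh3 (0.22 and 0.33), and Alpl and Spp1 (0.21 and -0.53). The part of these cells in the levels of Sox9 and Col2a1 was not tested.

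The Prep1 comparison asks the same question of the hypomorph, with 1 library on each side and therefore no test. Matn4, Acan, Col9a3 and Col9a2 were higher in the hypomorph library, Hapln1 was lower, and Sox9 and Col2a1 were nearly level. Ratios are log2 of scaled CPM with a prior count of 2, and the intervals are exact at 95% and cover counting error only. All 10 genes had at least 20 counts in the higher library. Past 2-fold in either direction were 3 of 10, against 2.47% of the 13780 genes with such counts. They were 3 of 10 upward (Col9a3, Acan and Matn4), against 2.01% of those genes, and 0 of 10 downward, against 0.464%. Acan and Matn4 met the minimum of 20 counts only through the hypomorph library, in which they are high, so these counts are a description and support nothing. Above 0 were 9 of 10, against 50.4% of those genes, and the median log2 ratio was 0.32, beside 0.003 over all of them.

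Matn4 had 39 counts (6.57 CPM) in the hypomorph and 3 counts (0.76 CPM) in WT, a log2 ratio of 2.59 (interval of the counts 1.47 to 5.46). Acan had 27 counts (4.54 CPM) in the hypomorph and 4 counts (1.01 CPM) in WT, a log2 ratio of 1.81 (0.65 to 4.15). Col9a3 had 156 counts (26.3 CPM) in the hypomorph and 30 counts (7.56 CPM) in WT, a log2 ratio of 1.74 (1.23 to 2.41). In these 3 genes the interval lay wholly above 0. Col9a2 had 199 counts (33.5 CPM) in the hypomorph and 67 counts (16.9 CPM) in WT, a log2 ratio of 0.97 (0.58 to 1.41), just under 2-fold. Hapln1 had 227 counts (38.2 CPM) in the hypomorph and 273 counts (68.8 CPM) in WT, a log2 ratio of -0.84 (-1.11 to -0.59). Before scaling, the log2 ratio of Hapln1 in the authors' deposited table is -0.27, since the hypomorph library is the deeper one.

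Sox9 had 1310 counts (221 CPM) in the hypomorph and 859 counts (216 CPM) in WT, a log2 ratio of 0.03 (-0.10 to 0.15). Col2a1 had 3282 counts (553 CPM) in the hypomorph and 2057 counts (518 CPM) in WT, a log2 ratio of 0.09 (0.01 to 0.17). The log2 ratios of Col9a1 (0.28), Col11a1 (0.31) and Col11a2 (0.32) were also small, and the interval of Col11a2 (-0.23 to 0.91) held 0. The regulator and the most abundant collagen thus showed the smallest ratios of the 10 genes in this pair.

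**Figure D4:**
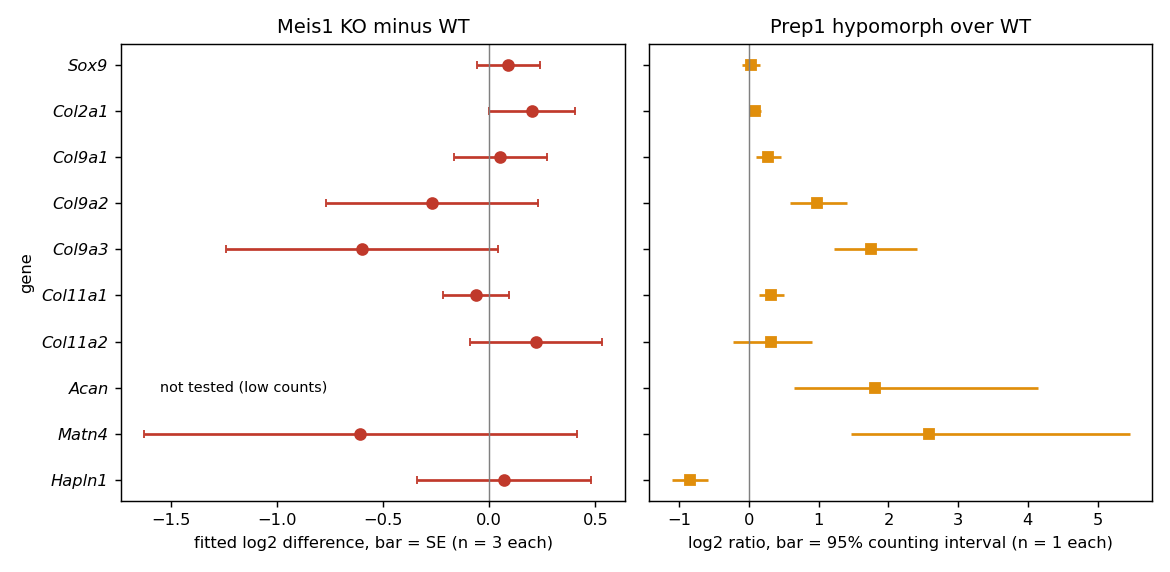
Left, fitted log2 difference of KO minus WT for the 9 genes tested in the Meis1 comparison, with bars of 1 SE (n = 3 each). Right, log2 ratio of the Prep1 hypomorph over WT for 10 genes, with 95% counting intervals of the 2 libraries (n = 1 each). On the left the bars cross 0, apart from that of Col2a1, which ends at about 0, and on the right Matn4 (2.59), Acan (1.81) and Col9a3 (1.74) lie farthest to the right and Hapln1 (-0.84) to the left.

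The Prep1 ratios can be set beside the gaps between libraries of 1 genotype in the Meis1 comparison, both as log2 CPM with a prior count of 2. Between its extreme WT libraries there, Col9a2 differed by 1.58, Col9a3 by 2.85, Matn4 by 4.29 (57 counts and 1 count) and Hapln1 by 1.56, against 0.97, 1.74, 2.59 and 0.84 in size between the Prep1 hypomorph and its WT library. The Prep1 ratios of these 4 genes were thus smaller than the gap between the extreme ones of 3 WT libraries. Between the extreme KO libraries the gaps were 1.56, 1.86, 2.73 and 1.52 in the same order, for Col9a3 and Matn4 only a little above the Prep1 ratio. For Col11a1 the Prep1 ratio of 0.31 was above the WT gap of 0.29 and below the KO gap of 0.44. Acan differed by 2.41 between its extreme KO libraries (15 counts and 1 count) and by 1.03 between its extreme WT libraries (6 and 3 counts), against 1.81 in the Prep1 pair. With 1 library a side, the genotype and the difference between any pair of embryos cannot be told apart.

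Among the other lists, few genes were past 2-fold in the Prep1 pair. Over all 13780 genes with enough counts, 2.47% were past 2-fold (2.01% upward and 0.464% downward) and 50.4% lay above 0. Fmod had 137 counts in the hypomorph and 41 counts in WT, a log2 ratio of 1.13 (0.65 to 1.70). Prelp, another small matrix proteoglycan and chosen after its value was seen, had 41 counts in the hypomorph and 7 counts in WT, a log2 ratio of 1.75 (0.80 to 3.37). These were 2 of the 9 other cartilage matrix genes with enough counts. Prelp met the minimum of 20 counts only through the hypomorph library, in which it is high, so this count is a description and supports nothing. Runx2, a factor of bone and late cartilage, was the 1 of 18 chondrogenic factors past 2-fold, with 109 counts in the hypomorph and 33 counts in WT, a log2 ratio of 1.11 (0.57 to 1.75). Below 0 lay Sox8, a close relative of Sox9, at -0.82 (43 counts in the hypomorph and 52 counts in WT), and Ctgf, a matricellular growth factor gene, at -0.55. Of 20 chondrogenic signals, 20 genes of collagen biosynthesis and 20 genes of proteoglycan synthesis, 0 were past 2-fold in each list. Among the first, Tgfbr2, a TGF-beta receptor gene, was at 0.65 and Shh at -0.53, and among the second, Lox, which cross-links collagen, was at 0.75 and Creb3l2, a factor for secretory load in chondrocytes, at 0.51. In the third, Chpf was at -0.47 and Chst3 at 0.42. Markers of other cells went both ways: 9 of 11 skeletal muscle genes lay above 0 (median 0.47, with Myod1 at 1.06 and Tnnt1 at 0.81), against 2 of 11 neural progenitor genes (median -0.30, with Sox3 at -0.59 and Pax6 at -0.47) and 0 of 6 notochord genes (median -0.37, with Krt18 at -0.39). Of 6 neural crest and glial genes 3 lay above 0, with Erbb3 at 0.47, Ednrb at 0.23 and Foxd3 past 2-fold at 1.19 (0.35 to 2.35, 44 counts in the hypomorph and 12 counts in WT). Chrna1, a muscle acetylcholine receptor gene, was also past 2-fold at 1.04, with an interval of -0.13 to 2.82 that held 0. Foxd3 and Chrna1 are given here after their values were seen, and both met the minimum of 20 counts only through the hypomorph library. Alpl, a mineralisation enzyme gene, was at -0.37. Low-oxygen genes lay above 0 in 15 of 17 (median 0.29, with Ndrg1 at 0.76 and Pdk1 at 0.61), and of 9 TALE genes 2 lay above 0, with Meis3 at -0.35 beside Pknox1. The part of these cells in the ratios of the cartilage genes was not tested.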

How the data were processed

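Libraries were made from mRNA of whole embryos and sequenced as single-end reads of 68 bases, per the labels' protocols. Expression was estimated with RSEM on build mm9, per the submitters' processing notes; its version and the filter on genes are not stated. The deposited Meis1 values are a signal, counts divided by size factors and averaged per group, under headers that match the DESeq result table. The deposited log2 values, p-values and variance ratio columns are the authors' own. The deposited Prep1 values are expected counts in whole numbers, with 0 written as 0.1 and read here as 0.

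Each group mean is a sum of 3 whole counts over 3 size factors, and 1 set of counts reproduced it for 18890 genes in KO and 18894 in WT. In a check on simulated means 100% of such answers were right, and with wrong steps 0% of genes had an answer. 14 genes without 1 answer in both groups, none of them described here, were left out. The unit differed from counts per library; the test was run on the worked-back counts. The edgeR test (version 4.0.16, TMM, filterByExpr with a minimum count of 10) was tested on simulated data; limma 3.58.1 and DESeq2 1.42.0 were alternatives, as were other scalings, filters, prior counts and leaving out each library. Prep1 ratios used TMM and a minimum of 20 counts in whichever library was higher. The genes and lists were chosen with earlier results of these data known. Named genes are the 10, the 2 of each list with the smallest p (Meis1) or largest ratio (Prep1, with a minimum of 50 counts on the higher side) and the 6 most alike; 1 gene that this rule names is not reported here, and others are said to be picked after their values were seen.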

Additional observations from a re-analysis of the deposited data

How the results depend on the processing

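No paired analysis was possible because the libraries carry no replicate numbers and cannot be tied to the sample codes. In the Meis1 comparison 0 of the cartilage genes passed FDR 0.05 under any tool, scaling, filter or left-out library, and DESeq2 called 1 gene of all. Without 1 library the log2 difference ran from -0.020 to 0.16 for Sox9, -0.0099 to 0.37 for Col2a1, -0.13 to 0.33 for Col9a1, -0.95 to 0.44 for Col9a2, -1.40 to 0.28 for Col9a3, -0.19 to 0.031 for Col11a1, -2.44 to 1.15 for Matn4 and -0.30 to 0.52 for Hapln1, so the sign of these 8 depended on single libraries. Of the 9 tested, Col11a2 (0.08 to 0.36) alone kept its sign. The median over the genes ran from -0.026 (without WT a) to 0.31 (without WT b). Both of these are over 10 genes, since Acan passed the filter in those fits, and the main median of 0.05 is over 9. They are therefore not medians of the same genes. Leaving out both b libraries, chosen after seeing the data, turned Col11a1 to 0.11. In the Prep1 pair 3 genes were past 2-fold under each scaling, prior count and filter run, except that the deposited unscaled ratio, which is not corrected for depth, put 4 past 2-fold with a median of 0.90. Low counts limit Acan, Matn4 and Col11a2.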
